A study of Mus musculus with 28 samples.

Results

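Interferon and inflammatory signalling was followed through 38 genes, taken from the count table by their symbols, in cells of the mouse embryo that pass from endothelium to blood. All 38 were among the 24015 genes of the table, and all 38 passed the filter on low counts that left 15238 genes for testing. They comprise 9 receptors, 6 signal transducers, 5 interferon regulatory factors, 3 feedback inhibitors, 9 interferon-induced effectors and 6 genes of antigen presentation. Each of the 28 libraries was made from 100 sorted cells of embryos labelled 23GFP transgenic, which is the label of every group and leaves the construct unexplained. At E8.5 the populations were hemogenic endothelium (HE, 4 libraries), the endothelium that gives rise to blood cells, and endothelial cells (EC). At E9.5 they were cells labelled pro-HSC/HPC, HE and EC, and at E10.5 they were pre-HSC II, pre-HSC I, HE and EC, with 3 libraries in each of these and in E8.5 EC. HPC means hematopoietic progenitor cell. The source tissue is given as AGM+VU for E10.5 and as PAS+VU for the earlier days, so tissue and day change together at that point.

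Interferons act through paired receptor chains, Ifnar1 with Ifnar2 for type I and Ifngr1 with Ifngr2 for type II, which activate Janus kinases and Stat proteins. Complexes that hold Stat2 and Irf9 then drive genes through the interferon-stimulated response element, Stat dimers act through the gamma-activated sequence, and Toll-like and tumour necrosis factor receptors act through NF-kappaB dimers such as Nfkb1 with Rela. Genes of this kind are known to take part in the emergence of blood stem cells in mouse and zebrafish embryos, where signalling occurs without infection.

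Totals ran from 16308918 to 31405603 counts per library, and a floor of 3 counts corresponded to 0.108 to 0.188 CPM (counts divided by TMM-scaled library size). The replicates are described as biological by the submitters, but the labels do not tie them to embryos or litters, so part of the spread may be technical. The 7 endothelial markers, among them Cdh5 and Pecam1, were detected in every population. Their summed level was 1580 to 2541 CPM in E8.5 HE and 1043 to 1303 CPM in E8.5 EC, and 329 to 418 CPM in pre-HSC II against 958 to 1295 CPM in pre-HSC I. The 10 hematopoietic markers summed to 107 to 147 CPM in E8.5 HE and 102 to 207 CPM in E8.5 EC, so that at E8.5 the blood markers did not separate HE from EC. Hemoglobin and other erythroid transcripts stood apart in 3 libraries, pre-HSC I replicate 3 and replicates 2 and 3 of pro-HSC/HPC. In bulk libraries, fewer cells of a type and less RNA per cell cannot be told apart.

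Promoter sequences show which of the signalling elements lie near the starts of the genes described. Of the 38 genes, 35 had entries in the RefSeq table (GRCm38.p6), with 41 promoters of 250 bases before to 50 bases after the start. The core of the interferon-stimulated element, GAAA and GAAA with any 2 bases between, was found on either strand in 11 of the 41 promoters (26.8%), against 3.44% of all 32851 promoters of that length. The gamma-activated sequence TTCNNNGAA was in 12 of 41 (29.3%, against 8.3% of all) and the NF-kappaB-like motif, GGGA and CC with any 4 bases between, in 13 of 41 (31.7%, against 20.7%). The 13 promoters with the NF-kappaB-like motif belong to 11 genes, and the entries of H2-K1 overlap and share the same site. The genes were listed for their place in these pathways, so the shares do not compare an independent set with all promoters. A match describes letters only and is not evidence of binding. The 200 bases before the start are shown for B2m, H2-D1 and H2-K1, whose proteins form class I molecules together, for the effector Gbp3, and for the NF-kappaB-linked genes Irf1 and Nfkbia. Each is printed in the direction of its gene, with matches to any of the 3 motifs in capitals.
B2m, chr2:122147487-122147686, plus strand: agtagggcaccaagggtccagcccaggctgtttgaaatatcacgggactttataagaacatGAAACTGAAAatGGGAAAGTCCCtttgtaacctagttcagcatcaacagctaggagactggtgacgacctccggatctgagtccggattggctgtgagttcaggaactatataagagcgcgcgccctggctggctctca
H2-D1, chr17:35262894-35263093, plus strand: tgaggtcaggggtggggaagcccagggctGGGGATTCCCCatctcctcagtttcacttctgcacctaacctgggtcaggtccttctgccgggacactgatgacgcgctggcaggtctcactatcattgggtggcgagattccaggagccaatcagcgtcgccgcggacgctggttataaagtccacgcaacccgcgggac
H2-K1, chr17:34000348-34000547, minus strand: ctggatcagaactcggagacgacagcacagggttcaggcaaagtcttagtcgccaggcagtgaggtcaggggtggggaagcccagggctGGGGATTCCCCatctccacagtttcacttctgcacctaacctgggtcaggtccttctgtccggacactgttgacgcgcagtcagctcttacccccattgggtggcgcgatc
Gbp3, chr3:142559844-142560043, plus strand: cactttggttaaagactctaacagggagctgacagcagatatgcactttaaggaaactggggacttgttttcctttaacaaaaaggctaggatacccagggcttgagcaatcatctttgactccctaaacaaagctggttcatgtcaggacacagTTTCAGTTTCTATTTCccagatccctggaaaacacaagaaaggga
Irf1, chr11:53769814-53770013, plus strand: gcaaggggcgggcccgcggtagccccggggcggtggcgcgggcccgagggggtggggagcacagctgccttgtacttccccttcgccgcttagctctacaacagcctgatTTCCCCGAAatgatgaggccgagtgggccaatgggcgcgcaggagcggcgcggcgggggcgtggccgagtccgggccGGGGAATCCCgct
Nfkbia, chr12:55492648-55492847, minus strand: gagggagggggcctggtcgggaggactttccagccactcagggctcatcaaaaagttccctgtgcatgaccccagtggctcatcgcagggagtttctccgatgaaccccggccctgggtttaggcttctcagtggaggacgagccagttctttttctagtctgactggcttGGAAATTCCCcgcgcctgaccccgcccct
The interferon-stimulated core and the NF-kappaB-like motif stand next to each other in B2m. H2-D1 and H2-K1 carry the same NF-kappaB-like letters, Gbp3 has the interferon-stimulated core on the opposite strand, Irf1 has 1 gamma-activated and 1 NF-kappaB-like match, and Nfkbia has the NF-kappaB-like match alone. Gbp3 and Irf1 each had another promoter entry, not shown, that held none of the 3 motifs. Sp110 held none of them in this window.

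Over the 9 populations, 28 of the 38 genes (73.7%) varied at an edgeR adjusted p under 0.05, beside 45.0% of all genes tested. The 38 were chosen with earlier results of these data known, so the shares do not compare an independent set with all genes. The mean level was highest in E10.5 HE for 13 of the 38 genes and in pre-HSC II for 12, and it was lowest in E8.5 EC for 18. Such counts were not made for all genes, so they have no share to be set beside. They also include genes that did not pass the test over the populations, such as Irf9 and Bst2, both highest in E10.5 HE. Averaged as log2(CPM + 1), the 9 effectors stood at 3.51 in HE and 3.12 in EC at E8.5, at 4.86 in pro-HSC/HPC, 4.14 in HE and 3.35 in EC at E9.5, and at 4.77 in pre-HSC II, 4.84 in pre-HSC I, 5.24 in HE and 3.90 in EC at E10.5. The 6 antigen presentation genes stood at 2.31 in HE and 1.93 in EC at E8.5, at 2.97 in pro-HSC/HPC, 2.85 in HE and 2.25 in EC at E9.5, and at 4.26 in pre-HSC II, 3.64 in pre-HSC I, 3.83 in HE and 3.12 in EC at E10.5. Per kilobase of exon, which allows levels to be compared between genes, Ifitm2 was the most abundant with a mean of 1000.5 CPM per kb over the populations, then B2m (293), Ifitm3 (217) and Ifitm1 (98.4). Tap1 was the least abundant at 0.188 CPM per kb.

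**Figure D1:**
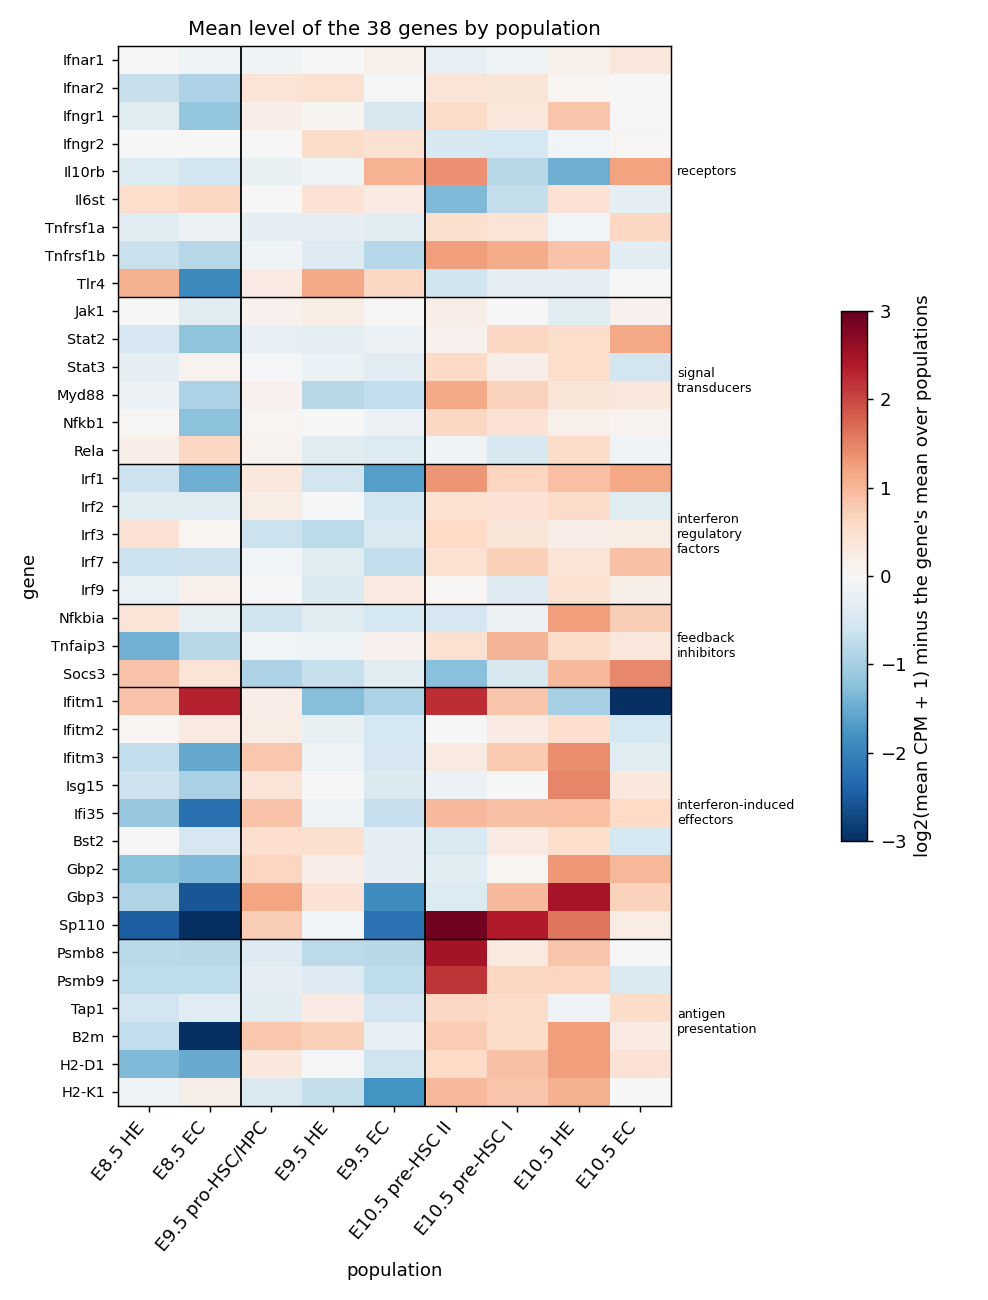
Mean level of each of the 38 genes (rows, ordered by role) in the 9 populations (columns, by day), as log2(mean CPM + 1) minus the gene's own mean over the populations. Red is above and blue below that mean, and the colours stop at 3 on either side. E8.5 EC holds the lowest level of 18 genes, and E10.5 HE and pre-HSC II hold the highest level of 13 and 12. Such counts were not made for all genes.

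HE was set against its same-day EC, the step at which endothelium with blood potential is set apart. At E8.5, 4 of the 38 genes rose in HE (Ifngr1, Tlr4, Gbp3 and B2m) and Ifitm1 fell, where 6.81% of all genes were called, 5.08% as higher and 1.73% as lower. At E9.5 Sp110 alone rose, where 0.302% of all genes were called, all of them higher. At E10.5, 6 rose (Stat3, Irf2, Ifitm1, Ifitm2, Ifitm3 and B2m) and Il10rb fell, where 3.48% of all genes were called, 2.11% as higher and 1.37% as lower. The median log2 difference of the 38 genes was 0.32 at E8.5, 0.44 at E9.5 and 0.44 at E10.5, and that of all genes tested was between -0.012 and 0. At E8.5, 5 of the 7 endothelial markers rose in HE, and their part in the E8.5 differences was not tested. The macrophage markers summed to 8.14 to 12.1 CPM in E10.5 HE and 6.66 to 19.9 CPM in E10.5 EC, with Emr1, C1qa, C1qb and C1qc at 0 in each of them. The mesenchyme markers summed to 223 to 949 CPM in E10.5 HE and 26.0 to 367 CPM in E10.5 EC, and their part in the HE differences was not tested.

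At the next step blood populations were compared with their neighbours. In pro-HSC/HPC against HE no gene of the 38 was called by edgeR, where 0.656% of all genes were called, 0.505% as higher and 0.151% as lower. Unadjusted p-values under 0.05 were found for 3 higher genes and 1 lower gene, and 1 gene, Ifitm1, passed in DESeq2. In pre-HSC I against HE, Ifitm1 rose and Il6st, Rela and Nfkbia fell, where 6.88% of all genes were called, 3.08% as higher and 3.80% as lower. In this comparison 6 of the 7 endothelial markers fell (958 to 1295 CPM summed in pre-HSC I and 3221 to 3339 CPM in HE) and 7 of the 10 hematopoietic markers rose. Granulocyte markers summed to 65.7 to 126 CPM in pre-HSC I and 0.639 to 3.69 CPM in HE, with 2 of 4 tested called as higher, and macrophage markers to 37.8 to 93.2 CPM in pre-HSC I and 8.14 to 12.1 CPM in HE, with 3 of 7 tested called as higher. Their part in the differences of the 38 genes was not tested. Without pre-HSC I replicate 3 and the other hemoglobin-rich libraries 2 of the 38 were called, Il6st and Ifitm1, and Rela and Nfkbia were not. In pre-HSC II against pre-HSC I, Il10rb rose, where 4.42% of all genes were called, 0.138% as higher and 4.28% as lower. No gene of the 38 was then called without the hemoglobin-rich libraries. In pre-HSC I against the earlier pro-HSC/HPC none was called by edgeR, beside 1.45% of all genes, 0.230% as higher and 1.22% as lower. Unadjusted p-values under 0.05 were found for 2 higher genes and 1 lower gene, and 2 genes, Sp110 and H2-K1, passed in DESeq2. The median log2 difference of the 38 was 0.24 in pro-HSC/HPC against HE, -0.25 in pre-HSC I against HE and 0.10 in pre-HSC II against pre-HSC I, beside medians of all genes of 0.023, 0.012 and 0.

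HE and EC were also compared between days. In HE at E9.5 against E8.5, 4 rose (Ifnar2, Sp110, B2m and H2-D1) and Ifitm1 fell, where 6.54% of all genes were called, 2.97% as higher and 3.58% as lower. In HE at E10.5 against E9.5, 5 rose (Nfkbia, Ifitm3, Sp110, H2-D1 and H2-K1) and Tlr4 fell, where 3.64% of all genes were called, 1.49% as higher and 2.15% as lower. In EC at E9.5 against E8.5, 7 rose (Ifngr1, Tlr4, Ifitm3, Ifi35, Sp110, B2m and H2-D1) and 4 fell (Rela, Ifitm1, Ifitm2 and H2-K1), where 19.7% of all genes were called, 10.1% as higher and 9.56% as lower. In EC at E10.5 against E9.5, 4 rose (Irf1, Gbp3, Sp110 and H2-K1) and Ifitm1 fell, where 0.761% of all genes were called, 0.308% as higher and 0.453% as lower. The median log2 difference of the 38 was 0.31 and 0.93 for the 2 HE steps and 0.24 and 0.61 for the 2 EC steps, beside all-gene medians of 0 to 0.049. Mesenchyme markers summed to 306 to 463 CPM in E9.5 HE against 35.6 to 77.3 CPM in E8.5 HE, with 2 of 9 called as higher, and to 86.8 to 583 CPM in E9.5 EC against 45.7 to 65.1 CPM in E8.5 EC, with 4 of 9 called as higher. Endothelial markers summed to 2696 to 3284 CPM in E9.5 HE against 1580 to 2541 CPM in E8.5 HE, with 2 of 7 higher, and to 2169 to 2473 CPM in E9.5 EC against 1043 to 1303 CPM in E8.5 EC, with 3 of 7 higher. At E10.5 against E9.5, 2 of the 7 endothelial markers were higher in HE and 0 in EC, and no mesenchyme marker was called by edgeR in either. Of the 10 hematopoietic markers, 2 were higher in HE and 0 in EC at that step. The part of these markers in the day differences was not tested. Consecutive steps of a population share its E9.5 libraries, so their calls are not independent.

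**Figure D2:**
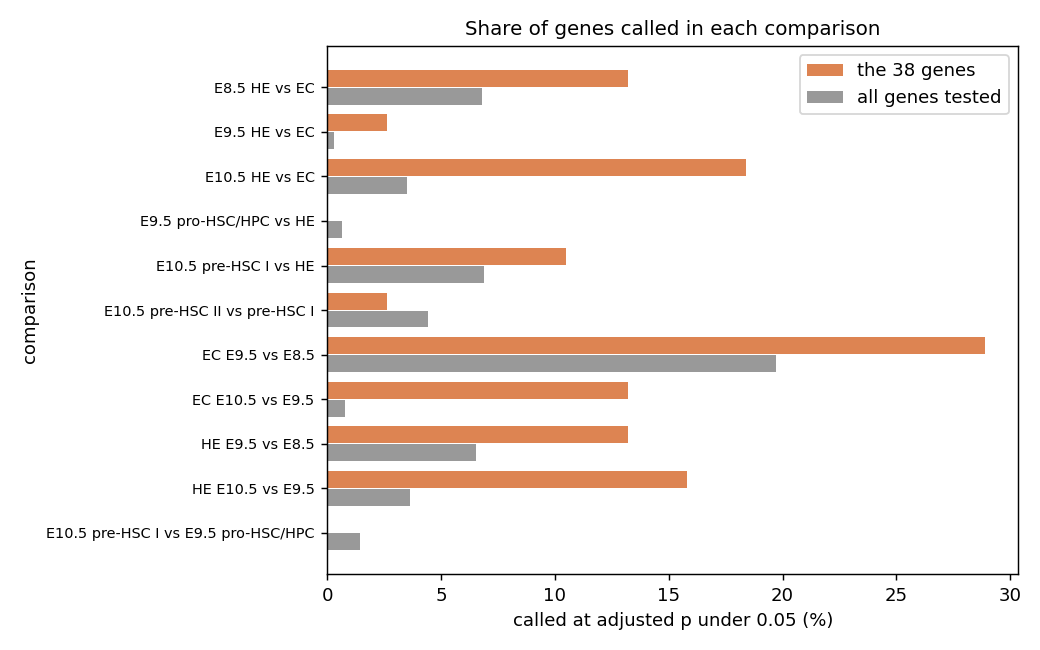
Share of the 38 genes (orange) and of all genes tested (grey) called at an edgeR adjusted p under 0.05 in each of the 11 comparisons. The 38 were chosen with earlier results of these data known. The share of the 38 was 28.9% for EC at E9.5 against E8.5, beside 19.7% of all genes, and 0 in the 2 comparisons with pro-HSC/HPC.

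Among the receptors, Ifnar1 did not pass the test over the populations (edgeR adjusted p = 0.276), with means between 82.0 CPM in pre-HSC II and 123 CPM in E10.5 EC. Ifngr1, the ligand-binding chain for interferon gamma, was at 58.9, 45.9, 91.0 and 86.5 CPM in E8.5 HE, against 28.001, 40.9 and 52.1 CPM in E8.5 EC. HE was higher on average, but the groups overlapped. The log2 difference was 0.81 ± 0.23 (SE; edgeR adjusted p = 0.0303), and the call was lost without EC replicate 1 or 2 or HE replicate 3 or 4 (adjusted p of 0.0691 to 0.169). At E10.5 Ifngr1 was at 159, 171 and 156 CPM in HE and 89.5, 95.7 and 89.8 CPM in EC. These values did not overlap, yet the log2 difference of 0.82 ± 0.24 missed the threshold (edgeR adjusted p = 0.0593), while DESeq2 called it. EC at E9.5 had 66.3, 75.7 and 52.8 CPM, a rise over E8.5 EC of 0.69 ± 0.24 on the log2 scale (edgeR adjusted p = 0.0455) that was lost without E8.5 EC replicate 1 or 2 or E9.5 EC replicate 1 or 2 (adjusted p of 0.0779 to 0.201). The partner chain Ifngr2 averaged between 20.4 CPM in pre-HSC I and 44.0 CPM in E9.5 HE. It varied over the populations (edgeR adjusted p = 0.0422) but was called by edgeR in none of the 11 comparisons.

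Tlr4, the receptor for bacterial lipopolysaccharide, differed between HE and EC at E8.5 and no longer by the test at E9.5. It was at 17.2, 17.3, 33.4 and 34.7 CPM in E8.5 HE, against 1.81, 2.28 and 3.01 CPM in E8.5 EC. Every HE library was far above every EC library (log2 difference 3.44 ± 0.41, edgeR adjusted p = 3.24e-06). At E9.5 Tlr4 was at 16.4, 39.8 and 25.2 CPM in HE and 18.1, 16.9 and 21.0 CPM in EC, which overlapped. EC had risen by 2.98 ± 0.41 on the log2 scale over E8.5 (edgeR adjusted p = 2.06e-05). The difference between HE and EC was smaller at E9.5 than at E8.5 by 2.90 ± 0.54 on the log2 scale when tested directly (edgeR adjusted p = 0.00546, where 0.847% of all genes were called, 0.164% as higher and 0.683% as lower). At E10.5 Tlr4 in HE was at 5.08, 11.6 and 11.3 CPM, a fall of 1.54 ± 0.38 against E9.5 HE (log2 scale, edgeR adjusted p = 0.0225). That fall was lost without E9.5 HE replicate 2 or 3 or any 1 of the E10.5 HE libraries (adjusted p of 0.0517 to 0.146).

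Ifnar2, the chain of the type I receptor that binds the ligand most tightly, was at 20.4, 20.6 and 18.2 CPM in E9.5 HE, against 4.74, 11.1, 12.6 and 5.28 CPM in E8.5 HE. The groups did not overlap and the rise was 1.23 ± 0.36 on the log2 scale (edgeR adjusted p = 0.0399), lost without E8.5 HE replicate 1 or 4 or any 1 of the E9.5 HE libraries (adjusted p of 0.0795 to 0.148). Il10rb, a chain shared by the receptors for interleukin 10 and interferon lambda, followed another course. It was at 22.8, 17.0 and 21.6 CPM in pre-HSC II, 4.19, 2.19 and 4.52 CPM in pre-HSC I, 4.65, 0.393 and 0.922 CPM in E10.5 HE, and 14.7, 29.2 and 10.1 CPM in E10.5 EC. HE and pre-HSC I were thus low beside EC on one side and pre-HSC II on the other. The log2 difference was -3.16 ± 0.73 for HE against EC (edgeR adjusted p = 0.0117) and 2.49 ± 0.71 between pre-HSC II and pre-HSC I (edgeR adjusted p = 0.0385). The HE call was lost without EC replicate 2 or HE replicate 2 or 3 (adjusted p of 0.0637 to 0.0855) and its size was -4.75 without HE replicate 1, and the pre-HSC II call without any 1 of its 6 libraries (adjusted p of 0.0671 to 0.19).

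Il6st, the gp130 chain that interleukin 6 family receptors share, was at 8.48, 11.4 and 19.2 CPM in pre-HSC I, against 26.9, 40.3 and 22.4 CPM in E10.5 HE. The groups did not overlap, and pre-HSC II was at 5.32, 8.09 and 10.9 CPM. The fall in pre-HSC I was 1.19 ± 0.34 on the log2 scale in size (edgeR adjusted p = 0.0295), lost without HE replicate 2 or pre-HSC I replicate 1 or 2 (adjusted p of 0.125 to 0.174). The tumour necrosis factor receptor Tnfrsf1a averaged between 29.6 CPM in E8.5 HE and 57.4 CPM in E10.5 EC and did not pass the test over the populations (edgeR adjusted p = 0.0624). Tnfrsf1b, the second such receptor, averaged 6.13 CPM in pre-HSC II and 0.651 CPM in E8.5 EC. It varied over the populations (edgeR adjusted p = 0.0338) but was called by edgeR in none of the 11 comparisons.

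Among the signal transducers, the kinase Jak1, which serves all these interferon receptors, did not pass the test over the populations (edgeR adjusted p = 0.154), with means from 112 CPM in E8.5 EC to 166 CPM in E9.5 HE. Stat3, the main Stat protein of gp130 signalling, was at 52.2, 62.4 and 67.5 CPM in E10.5 HE, against 26.1, 17.8 and 40.3 CPM in E10.5 EC. All HE libraries were above all EC libraries, by 1.11 ± 0.30 on the log2 scale (edgeR adjusted p = 0.0334). The call was lost without EC replicate 1 or 2 or HE replicate 2 or 3 (adjusted p of 0.0992 to 0.181). Rela, the activating subunit of NF-kappaB, was at 15.8, 17.5 and 13.8 CPM in pre-HSC I, against 22.5, 32.1 and 44.5 CPM in E10.5 HE. It fell by 1.07 ± 0.32 on the log2 scale (edgeR adjusted p = 0.0429), and the call was lost without HE replicate 2 or 3 or any 1 of the pre-HSC I libraries (adjusted p of 0.0888 to 0.241). Rela also fell in EC, to 13.0, 20.2 and 15.9 CPM at E9.5, against 30.3, 44.9 and 28.8 CPM at E8.5. That fall was 1.08 ± 0.32 on the log2 scale (edgeR adjusted p = 0.019), lost without E8.5 EC replicate 2 or E9.5 EC replicate 1 or 3 (adjusted p of 0.0726 to 0.113). Nfkb1, its partner subunit, averaged from 19.7 CPM in E8.5 EC to 74.6 CPM in pre-HSC II, the adaptor Myd88 from 9.01 CPM in E8.5 EC to 41.4 CPM in pre-HSC II, and Stat2 from 3.08 CPM in E8.5 EC to 20.1 CPM in E10.5 EC. None of these 3 was called by edgeR in any of the 11 comparisons, although DESeq2 called Nfkb1 in E8.5 HE against EC and in EC at E9.5 against E8.5, and Myd88 and Stat2 varied over the populations (edgeR adjusted p of 0.00191 and 0.0314).

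Of the interferon regulatory factors, Irf2, which competes with Irf1 for the same elements, was at 99.5, 127 and 136 CPM in E10.5 HE, against 58.8, 70.8 and 60.5 CPM in E10.5 EC. The groups did not overlap, and the difference was 0.93 ± 0.21 on the log2 scale (edgeR adjusted p = 0.00935). It was lost without EC replicate 1 or 3 or HE replicate 3 (adjusted p of 0.0543 to 0.0601). Irf1, an activator induced by interferons and NF-kappaB, was at 12.1, 15.1 and 36.4 CPM in E10.5 EC, against 0.749, 3.88 and 1.97 CPM in E9.5 EC. The rise was 3.27 ± 0.80 on the log2 scale (edgeR adjusted p = 0.0484), lost without any 1 of the E9.5 EC libraries or E10.5 EC replicate 2 or 3 (adjusted p of 0.0802 to 0.227). Irf1 means in blood populations were 11.5 CPM in pro-HSC/HPC, 14.6 CPM in pre-HSC I and 24.1 CPM in pre-HSC II, and 17.6 CPM in E10.5 HE. Irf3 and Irf9, the sensor-linked factor and the Stat partner, did not pass the test over the populations (edgeR adjusted p of 0.204 and 0.454). Irf7, the factor that amplifies type I interferon, stayed at or below 4.59 CPM in every library.

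The feedback inhibitors were led by Nfkbia, the NF-kappaB inhibitor that NF-kappaB itself induces. It was at 102, 59.5 and 114 CPM in E10.5 HE, against 30.6, 25.5 and 31.3 CPM in E9.5 HE, a rise of 1.66 ± 0.40 on the log2 scale (edgeR adjusted p = 0.0188). The call was lost without any 1 of the E9.5 HE libraries or E10.5 HE replicate 3 (adjusted p of 0.0665 to 0.0901). Pre-HSC I had 37.6, 21.4 and 41.4 CPM, all below the E10.5 HE libraries. The fall of Nfkbia in pre-HSC I against HE was 1.46 ± 0.40 on the log2 scale (edgeR adjusted p = 0.024), lost without HE replicate 1 or 3 or pre-HSC I replicate 2 (adjusted p of 0.0687 to 0.148). Il6st, Rela and Nfkbia were therefore the 3 genes called as lower in pre-HSC I than in HE. Socs3, which blocks gp130 signalling, averaged 9.53 CPM in E10.5 EC and 0.64 CPM in pre-HSC II, and Tnfaip3, which edits ubiquitin in NF-kappaB signalling, averaged at most 5.55 CPM, in pre-HSC I. Neither was called by edgeR in any of the 11 comparisons, and DESeq2 called Tnfaip3 in HE at E9.5 against E8.5.

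**Figure D3:**
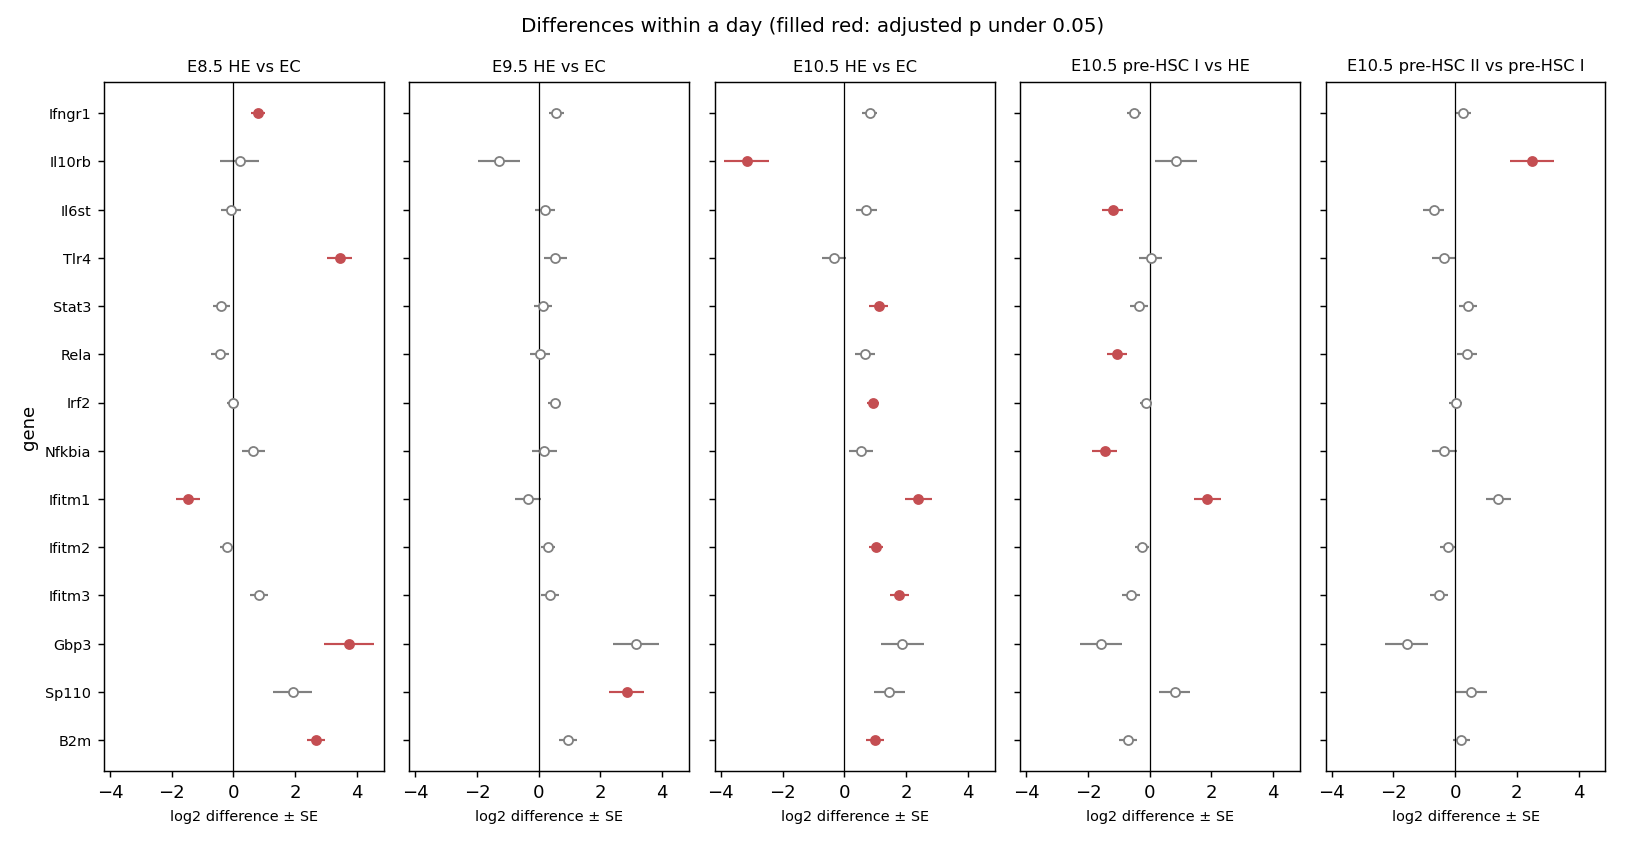
Log2 differences with SE (horizontal bars) for the genes called in at least 1 of 5 comparisons within a day, 1 panel a comparison, with values to the right of 0 higher in the population named first. Filled red points are called at an edgeR adjusted p under 0.05 and open grey points are not. Ifitm1 lies at -1.47 at E8.5 and at 2.40 at E10.5 for HE against EC.

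The Ifitm genes encode small membrane proteins that block virus entry, and Ifitm1 and Ifitm3 also mark early germ cells. They lie together on chromosome 7 (mm9), and reads may be shared between these similar copies, so their separate levels are uncertain. Ifitm1 (148153330 to 148155730) was at 100, 122, 42.6 and 72.9 CPM in HE and 262, 268 and 171 CPM in EC at E8.5. At E9.5 it was at 56.2, 47.5 and 57.8 CPM in pro-HSC/HPC, 23.7, 13.5 and 18.6 CPM in HE, and 16.3, 41.3 and 13.4 CPM in EC. At E10.5 it was at 319, 210 and 129 CPM in pre-HSC II, 130, 71.0 and 48.2 CPM in pre-HSC I, 21.4, 28.9 and 17.7 CPM in HE, and 3.87, 5.64 and 3.42 CPM in EC.

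The Ifitm1 values were thus high in pre-HSC II and in EC of E8.5, and lowest in E10.5 EC. HE was below EC at E8.5 with no overlap (log2 difference -1.47 ± 0.38, edgeR adjusted p = 0.0171), a call lost without EC replicate 1 or 2 or HE replicate 3 or 4 (adjusted p of 0.0515 to 0.0782). HE was above EC at E10.5 with no overlap (2.40 ± 0.44, edgeR adjusted p = 0.00156), and pre-HSC I was above HE (1.87 ± 0.42, edgeR adjusted p = 0.00629). The Ifitm1 values of pre-HSC II and pre-HSC I overlapped by 1 library, and their log2 difference of 1.40 ± 0.42 missed the threshold (edgeR adjusted p = 0.0528). It passed in DESeq2, and in edgeR without pre-HSC II replicate 3 (edgeR adjusted p = 0.0259) or pre-HSC I replicate 1 (edgeR adjusted p = 0.0154). Pro-HSC/HPC was above E9.5 HE without overlap, but the log2 difference of 1.53 ± 0.42 also missed it (edgeR adjusted p = 0.11). Across days Ifitm1 fell in EC by 3.31 ± 0.45 at E9.5 against E8.5 (edgeR adjusted p = 1.6e-05) and by 2.46 ± 0.44 at E10.5 against E9.5 (edgeR adjusted p = 0.00698), both on the log2 scale. The E10.5 call was lost without E9.5 EC replicate 2 or E10.5 EC replicate 3 (adjusted p of 0.0563 to 0.0699). In HE Ifitm1 fell by 2.18 ± 0.41 on the log2 scale at E9.5 against E8.5 (edgeR adjusted p = 0.0028).

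Ifitm3 (148195490 to 148196640) rose in EC at E9.5 against E8.5 and in HE at E10.5 against E9.5, and the other 2 steps did not pass the test. It was at 79.7, 82.5, 71.4 and 51.0 CPM in HE and 31.5, 49.3 and 39.6 CPM in EC at E8.5. At E9.5 it was at 213, 229 and 187 CPM in pro-HSC/HPC, 115, 105 and 102 CPM in HE, and 72.3, 94.3 and 83.7 CPM in EC. At E10.5 Ifitm3 was at 182, 132 and 113 CPM in pre-HSC II, 319, 145 and 155 CPM in pre-HSC I, 387, 271 and 288 CPM in HE, and 138, 60.1 and 76.2 CPM in EC. HE was above EC without overlap at each of the 3 days, and the difference was called at E10.5 (log2 difference 1.79 ± 0.30, edgeR adjusted p = 0.00063). HE at E10.5 was also above HE at E9.5 (1.55 ± 0.30, edgeR adjusted p = 0.00363), and EC at E9.5 above EC at E8.5 (1.06 ± 0.30, edgeR adjusted p = 0.0135). That EC rise was lost without E8.5 EC replicate 1 (adjusted p = 0.0695).

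Ifitm2 (148140740 to 148141860) was abundant in every library. It was at 1021, 769 and 803 CPM in E10.5 HE, against 549, 387 and 339 CPM in E10.5 EC, a difference of 1.02 ± 0.23 on the log2 scale (edgeR adjusted p = 0.0109). The call was lost without EC replicate 2 or 3 (adjusted p of 0.0606 to 0.0869). In EC Ifitm2 was at 424, 456 and 393 CPM at E9.5, against 755, 742 and 704 CPM at E8.5, a fall of 0.79 ± 0.23 on the log2 scale (edgeR adjusted p = 0.0179). That fall was lost without E8.5 EC replicate 1 or E9.5 EC replicate 1 or 3 (adjusted p of 0.0588 to 0.0807).

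Sp110, a nuclear body protein induced by interferons, covered the widest span of these effectors. It lies on chromosome 1 from 87473475 to 87500466 (minus strand, mm9) and belongs to a family of related genes there, so that its reads may be shared with relatives. It was at 1.67, 1.15, 0.285 and 0.269 CPM in HE and 0.363, 0.157 and 0.125 CPM in EC at E8.5. At E9.5 Sp110 was at 21.6, 17.2 and 9.47 CPM in pro-HSC/HPC, 7.89, 12.7 and 5.20 CPM in HE, and 0.333, 1.47 and 1.79 CPM in EC. At E10.5 it was at 66.1, 81.4 and 78.2 CPM in pre-HSC II, 47.1, 58.8 and 50.6 CPM in pre-HSC I, 26.8, 25.7 and 37.0 CPM in HE, and 10.3, 7.57 and 14.6 CPM in EC. The 4 populations of E10.5 did not overlap with each other.

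HE exceeded EC in Sp110 at E9.5 by 2.84 ± 0.56 on the log2 scale (edgeR adjusted p = 0.0131), a call lost without EC replicate 1 or 2 or HE replicate 2 (adjusted p of 0.0744 to 0.12). At E10.5 the log2 difference was 1.46 ± 0.51, which edgeR did not call (edgeR adjusted p = 0.125) and DESeq2 did. Between days Sp110 rose in HE by 3.32 ± 0.51 at E9.5 against E8.5 (edgeR adjusted p = 0.000512) and by 1.79 ± 0.51 at E10.5 against E9.5 (edgeR adjusted p = 0.0488), on the log2 scale. The second HE rise was lost without any 1 of its 6 libraries (adjusted p of 0.0548 to 0.238). In EC Sp110 rose by 2.40 ± 0.66 at E9.5 against E8.5 (edgeR adjusted p = 0.0117), where the libraries overlapped, and by 3.17 ± 0.56 at E10.5 against E9.5 (edgeR adjusted p = 0.00657), on the log2 scale. The first EC rise was lost without E8.5 EC replicate 2 or E9.5 EC replicate 3 (adjusted p of 0.0544 to 0.0729).

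Gbp3, a guanylate-binding protein that interferon gamma induces (chromosome 3, 142223020 to 142236180, mm9), had its highest mean in E10.5 HE. It was at 4.27, 1.38, 1.52 and 3.98 CPM in HE and 0.564, 0 and 0 CPM in EC at E8.5, which did not overlap (log2 difference 3.76 ± 0.81, edgeR adjusted p = 0.00459). Because 2 of these 3 EC libraries were at 0, the size is uncertain: the fitted value was 8.99 without EC replicate 1, the one above 0, and 3.16 without EC replicate 2. The Gbp3 call was lost with only the E8.5 HE and EC libraries in the fit (edgeR adjusted p = 0.224). At E9.5 Gbp3 was at 16.4, 17.1 and 11.7 CPM in pro-HSC/HPC, 9.17, 7.11 and 9.19 CPM in HE, and 1.37, 0.950 and 0.525 CPM in EC. At E10.5 it was at 2.49, 4.07 and 6.37 CPM in pre-HSC II, 8.94, 16.7 and 12.8 CPM in pre-HSC I, 38.1, 43.6 and 33.6 CPM in HE, and 6.06, 21.5 and 3.82 CPM in EC. Every E10.5 HE library was above every other library of the series. The HE and EC difference in Gbp3 did not pass the test at E9.5 (3.15 ± 0.75, edgeR adjusted p = 0.0705) or E10.5 (1.88 ± 0.69, edgeR adjusted p = 0.157), nor did the lower level in pre-HSC I than in HE (-1.58 ± 0.69, edgeR adjusted p = 0.176), all on the log2 scale. DESeq2 called the HE and EC difference in Gbp3 at E9.5 and at E10.5. Without E10.5 EC replicate 2 the E10.5 log2 difference was 2.95 and was called (edgeR adjusted p = 0.0461). EC at E10.5 rose over EC at E9.5 by 3.45 ± 0.76 (log2 scale, edgeR adjusted p = 0.0263), lost without any 1 of the E9.5 EC libraries or E10.5 EC replicate 2 (adjusted p of 0.0763 to 0.212).

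Of the other effectors, Ifi35 was at 3.29, 8.85 and 7.78 CPM in E9.5 EC and 0.967, 3.92 and 0 CPM in E8.5 EC, a rise of 1.99 ± 0.68 on the log2 scale (edgeR adjusted p = 0.0399) with overlapping libraries. It was lost without E8.5 EC replicate 1 or 3 or E9.5 EC replicate 2 or 3 (adjusted p of 0.0646 to 0.148), and its size was 3.66 without E8.5 EC replicate 2. Isg15, the ubiquitin-like modifier that interferon induces strongly, averaged 5.23 CPM in E10.5 HE and 0.150 CPM in E8.5 EC. It varied over the populations (edgeR adjusted p = 0.00386) but was called by edgeR in none of the 11 comparisons. Bst2 (tetherin) and Gbp2 did not pass the test over the populations (edgeR adjusted p of 0.655 and 0.172).

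**Figure D4:**
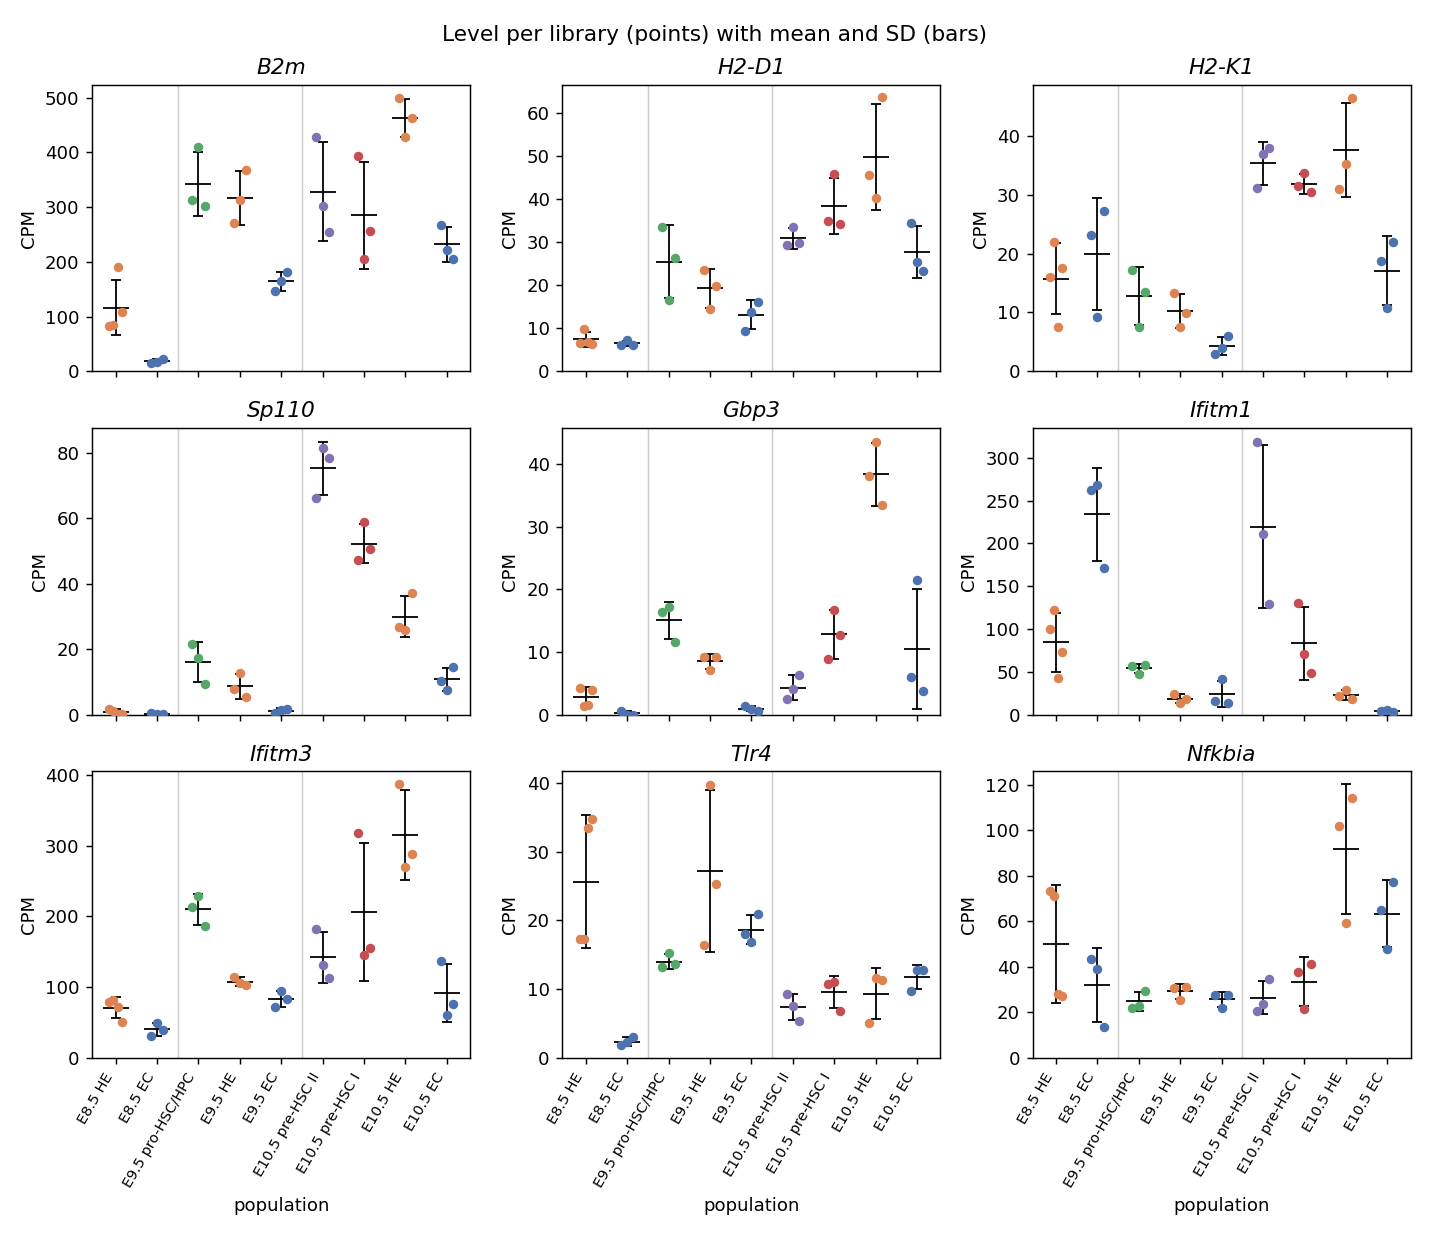
Level in CPM (linear axis from 0) of 9 genes in every library (points), with the mean and SD of each population (black bars), by day and population. Tlr4 in E8.5 EC lies between 1.81 and 3.01 CPM, below the 17.2 to 34.7 CPM of E8.5 HE, and Gbp3 in E10.5 HE lies above all other libraries.

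In antigen presentation, B2m, the invariant chain of class I molecules (chromosome 2, 121973420 to 121978820, mm9), was the most abundant. It was at 83.3, 84.1, 190 and 108 CPM in HE and 14.8, 17.5 and 22.1 CPM in EC at E8.5. At E9.5 B2m was at 314, 410 and 302 CPM in pro-HSC/HPC, 271, 312 and 368 CPM in HE, and 147, 164 and 181 CPM in EC. At E10.5 it was at 428, 302 and 254 CPM in pre-HSC II, 393, 204 and 257 CPM in pre-HSC I, 499, 428 and 462 CPM in HE, and 268, 222 and 206 CPM in EC. HE was above EC without overlap at each of the 3 days.

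The B2m difference between HE and EC was 2.68 ± 0.29 at E8.5 (edgeR adjusted p = 8.53e-07), 0.95 ± 0.28 at E9.5 (edgeR adjusted p = 0.222) and 1.00 ± 0.28 at E10.5 (edgeR adjusted p = 0.0435), on the log2 scale. DESeq2 called the E9.5 difference as well. The E10.5 call was lost without any 1 of its 6 libraries (adjusted p of 0.0701 to 0.171), while the log2 difference stayed between 0.92 and 1.11. Tested directly, the difference at E9.5 was smaller than at E8.5 by 1.73 ± 0.39 (edgeR adjusted p = 0.0227), which was lost without E8.5 EC replicate 1, E9.5 EC replicate 3 or E9.5 HE replicate 1 or 2 (adjusted p of 0.0574 to 0.0755). B2m rose by 1.45 ± 0.26 in HE at E9.5 against E8.5 (edgeR adjusted p = 0.00182) and by 3.18 ± 0.30 in EC (edgeR adjusted p = 9.5e-08), on the log2 scale. In pre-HSC I against HE the log2 difference was -0.70 ± 0.28 (edgeR adjusted p = 0.134), and without pre-HSC I replicate 1 it was called (edgeR adjusted p = 0.0385).

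The class I heavy chains H2-D1 and H2-K1 lie on chromosome 17 and are near copies of each other and of other class I genes, so the split of reads between them is uncertain. H2-D1 (35400039 to 35404442, mm9) was at 6.56, 9.91, 6.85 and 6.31 CPM in HE at E8.5, 23.5, 14.5 and 19.7 CPM at E9.5 and 45.6, 40.1 and 63.5 CPM at E10.5. No library of 1 day overlapped with the next. The rise in HE was 1.38 ± 0.27 at E9.5 against E8.5 (edgeR adjusted p = 0.00368) and 1.37 ± 0.29 at E10.5 against E9.5 (edgeR adjusted p = 0.00765), on the log2 scale, the second lost without E9.5 HE replicate 2 or E10.5 HE replicate 3 (adjusted p of 0.0574 to 0.0638). In EC H2-D1 was at 6.16, 7.18 and 6.02 CPM at E8.5, 9.44, 13.8 and 16.0 CPM at E9.5 and 34.5, 25.4 and 23.2 CPM at E10.5. The EC rise at E9.5 against E8.5 was 1.02 ± 0.30 on the log2 scale (edgeR adjusted p = 0.0162), lost without E8.5 EC replicate 1 or E9.5 EC replicate 3 (adjusted p of 0.0565 to 0.0911).

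H2-K1 (34132957 to 34137278, mm9) was not lowest at E8.5. It was at 16.0, 22.0, 7.56 and 17.5 CPM in HE at E8.5, 13.4, 7.55 and 9.99 CPM at E9.5 and 31.0, 35.3 and 46.6 CPM at E10.5, and at 23.2, 9.22 and 27.3 CPM in EC at E8.5, 2.99, 4.01 and 5.99 CPM at E9.5 and 18.8, 10.7 and 22.0 CPM at E10.5. In EC H2-K1 fell at E9.5 against E8.5 by 2.20 ± 0.42 (edgeR adjusted p = 0.000702), where H2-D1 rose, and rose at E10.5 against E9.5 by 1.98 ± 0.42 (edgeR adjusted p = 0.0225), on the log2 scale. The second was lost without E9.5 EC replicate 1 or 2 or E10.5 EC replicate 3 (adjusted p of 0.0929 to 0.126). In HE at E10.5 against E9.5 H2-K1 rose by 1.87 ± 0.41 (log2 scale, edgeR adjusted p = 0.00963), lost without E9.5 HE replicate 2 or 3 or E10.5 HE replicate 3 (adjusted p of 0.0517 to 0.0615). HE was above EC in all libraries at E10.5, but the log2 difference of 1.13 ± 0.40 was not called (edgeR adjusted p = 0.139).

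**Figure D5:**
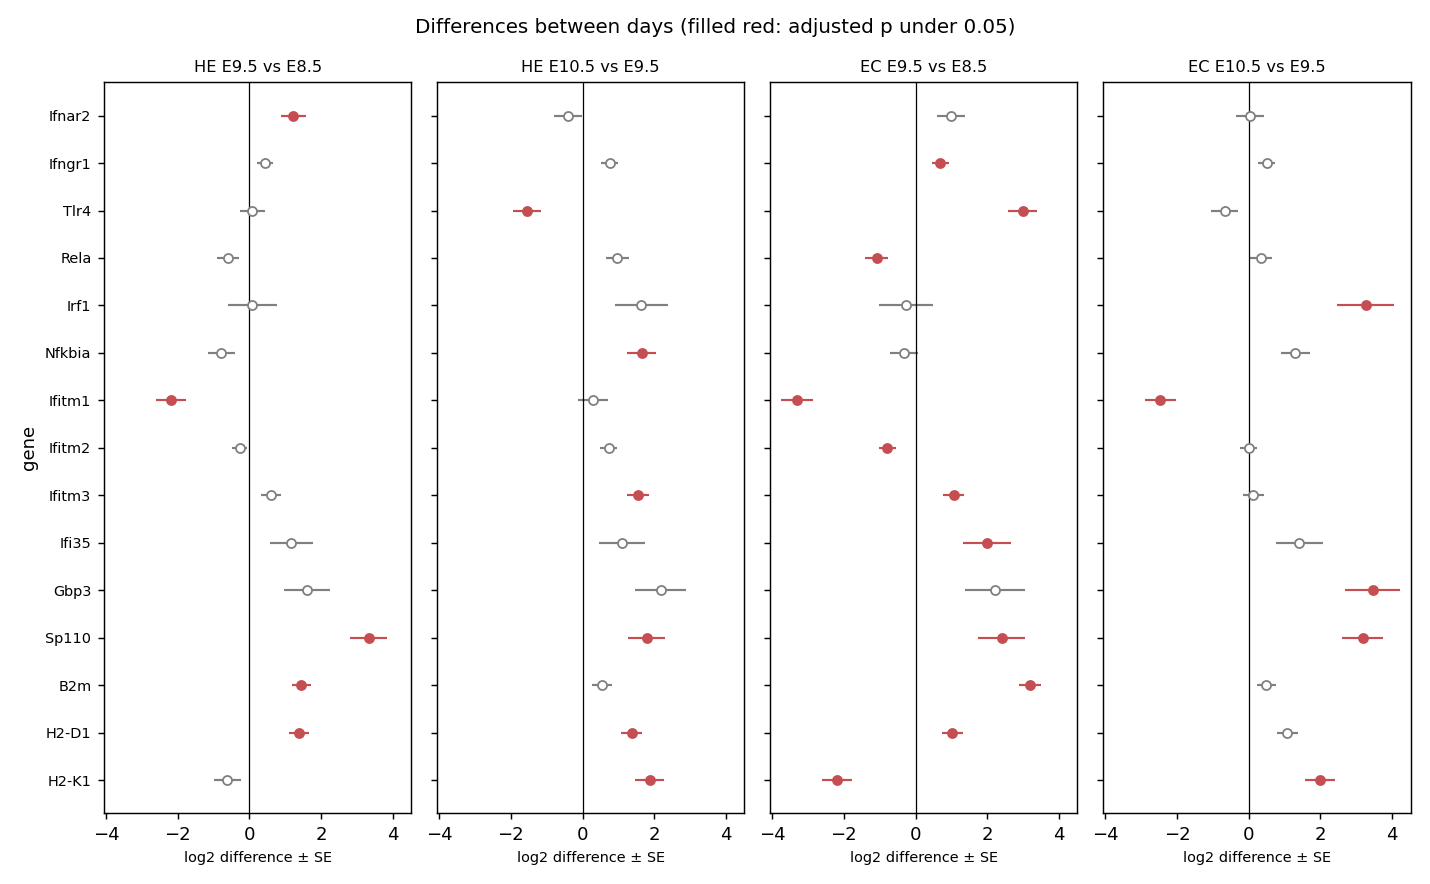
Log2 differences with SE (horizontal bars) between days for the genes called in at least 1 of 4 comparisons, 2 for HE and 2 for EC, with values to the right of 0 higher on the later day. Filled red points are called at an edgeR adjusted p under 0.05 and open grey points are not. H2-K1 in EC lies at -2.20 at E9.5 against E8.5 and at 1.98 at E10.5 against E9.5.

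The immunoproteasome subunits Psmb8 and Psmb9 and the peptide transporter Tap1, which lie next to each other on chromosome 17, were at or under 1.88 CPM in every library before E10.5. Psmb8 was at 9.64, 11.9 and 5.56 CPM in pre-HSC II, 2.02, 0.190 and 1.35 CPM in pre-HSC I, 3.03, 0.295 and 3.07 CPM in E10.5 HE, and 2.28, 0 and 0 CPM in E10.5 EC. Psmb9 was at 7.04, 9.68 and 2.87 CPM in pre-HSC II, 0.757, 2.09 and 1.94 CPM in pre-HSC I, 1.12, 2.41 and 1.40 CPM in E10.5 HE, and 0.0860, 0 and 0.704 CPM in E10.5 EC. Every pre-HSC II library was above every other library of the series for each of these 2 subunits. The log2 difference of Psmb8 in pre-HSC II against pre-HSC I was 2.92 ± 1.54, which was not called (edgeR adjusted p = 0.508). With only these groups in the fit it was called (edgeR adjusted p = 0.0493). Psmb8, Psmb9 and Tap1 varied over the populations (edgeR adjusted p of 0.000162, 0.00099 and 0.04). DESeq2 called Psmb8 in HE and in EC at E10.5 against E9.5, and Psmb9 and Tap1 in HE at E9.5 against E8.5. Tap1 averaged at most 1.26 CPM. Macrophage markers summed to 192 to 279 CPM in pre-HSC II and 37.8 to 93.2 CPM in pre-HSC I, with Emr1, C1qa and C1qc at 0 in pre-HSC II, and granulocyte markers to 297 to 416 CPM in pre-HSC II and 65.7 to 126 CPM in pre-HSC I. Their part in these levels was not tested.

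Over the 9 population means of log2(CPM + 1), Psmb8 and Psmb9 were the most alike pair of genes (Pearson r = 0.97), then Ifi35 and H2-D1 (0.95), Tnfrsf1b and Sp110 (0.93), Ifngr1 and Ifi35 (0.93), Ifi35 and Sp110 (0.93) and Isg15 and Gbp3 (0.92). Ifnar1 and Ifitm1 were the most opposed (-0.93). These are descriptions over 9 means that share the libraries. Psmb8 and Psmb9 had 0 counts in 13 and 14 of the 28 libraries, and their highest means, in pre-HSC II, were 9.04 and 6.53 CPM.

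Of 25 listed ligands of the pathway, 14 stayed under 1 CPM in every library, and Ifnb1, Ifna2, Ifna4, Ifng and Ifnl3 had 0 counts in all 28 libraries, which allows a level of up to 0.108 to 0.188 CPM per library. Ifna1 and Ifnl2 had 2 counts each. The gene for the macrophage growth factor, Csf1, had the highest level among them with 44.7 CPM in pro-HSC/HPC, followed by the chemokine gene Cxcl1 with 8.48 CPM and Il11 with 4.90 CPM, each highest in E10.5 EC. The gene for tumour necrosis factor, Tnf, averaged at most 1.95 CPM, in pre-HSC II. The sorted cells are not the only possible source of a ligand, and other tissue was not measured.

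Of 180 other listed genes of the pathway in the table, 151 were tested, and they give the setting for the 38. In HE against EC, 12 rose and 2 fell at E8.5, none was called by edgeR at E9.5 (22 higher and 2 lower with unadjusted p-values under 0.05, and 5 passing in DESeq2), and 7 rose and 1 fell at E10.5. These are 9.27% of the 151 at E8.5 and 5.3% at E10.5, beside 6.81% and 3.48% of all genes. At E8.5 the kinase gene Jak2 averaged 25.4 CPM in HE (log2 difference 2.59 ± 0.45, edgeR adjusted p = 0.000524), and the receptor gene Lifr was higher by 1.73 ± 0.25 (edgeR adjusted p = 4.77e-05). Lgals3bp, a secreted galectin ligand, was lower in HE by 2.71 ± 0.59 in size (log2 scale, edgeR adjusted p = 0.00441). At E10.5 the class I chaperone Tapbp was higher in HE by 1.79 ± 0.34 (edgeR adjusted p = 0.00208), the phosphatase gene Ptpn6 by 2.48 ± 0.46 (edgeR adjusted p = 0.00163) and the interferon-induced Ifit2 by 3.95 ± 0.98 (edgeR adjusted p = 0.0207), all on the log2 scale. The receptor gene Csf3r was lower in HE by 1.68 ± 0.39 (log2 scale, edgeR adjusted p = 0.0128).

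In the blood populations, 2 of the 151 rose in pro-HSC/HPC against HE, 8 rose and 2 fell in pre-HSC I against HE, and 4 fell and 0 rose in pre-HSC II against pre-HSC I. The shares called were 1.32%, 6.62% and 2.65%, beside 0.656%, 6.88% and 4.42% of all genes. Csf3r, the receptor for granulocyte colony-stimulating factor, was higher in pre-HSC I than in HE by 2.73 ± 0.40 (edgeR adjusted p = 0.000133), and Lifr was lower by 1.62 ± 0.26 in pre-HSC I than in HE (edgeR adjusted p = 0.000247) and by 2.30 ± 0.27 in pre-HSC II than in pre-HSC I (edgeR adjusted p = 1.3e-06), all on the log2 scale. Ptpn6, a phosphatase of blood cells, averaged 119 CPM in pre-HSC I and 24.1 CPM in E10.5 HE. Between days, 7 rose and 2 fell in HE at E9.5 against E8.5, 9 rose and 2 fell in HE at E10.5 against E9.5, 22 rose and 8 fell in EC at E9.5 against E8.5, and 2 rose and 3 fell in EC at E10.5 against E9.5. The shares called were 5.96% and 7.28% for the HE steps, beside 6.54% and 3.64% of all genes, and 19.9% and 3.31% for the EC steps, beside 19.7% and 0.761% of all genes, so that for HE and EC at E9.5 against E8.5 and for pre-HSC I against HE the share was near that of all genes. In HE at E10.5 the messenger RNA decay factor Zfp36 averaged 99.8 CPM, against 13.0 CPM at E9.5 (log2 difference 2.94 ± 0.55, edgeR adjusted p = 0.00299), and the galectin gene Lgals9 23.7 CPM, against 1.63 CPM (3.85 ± 0.74, edgeR adjusted p = 0.00398). The nonclassical class I gene H2-T23 averaged 8.96 CPM in E10.5 HE, against 28.9 CPM in E9.5 HE, and fell by 1.69 ± 0.33 on the log2 scale (edgeR adjusted p = 0.00381).

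Differences between steps were also tested directly. Tlr4 and B2m were the 2 of the 38 called for the change of the HE and EC difference at E9.5 against E8.5. For the same change at E10.5 against E9.5 none of the 38 was called by edgeR, where 0.0131% of all genes were called, all of them lower; unadjusted p-values under 0.05 were found for 4 higher and 2 lower genes, and Ifitm1 passed in DESeq2. The step to blood, pre-HSC I against HE at E10.5 set beside pro-HSC/HPC against HE at E9.5, gave no edgeR call among the 38, where 0.0722% of all genes were called, 0.0328% as higher and 0.0394% as lower; unadjusted p-values under 0.05 were found for 0 higher and 8 lower genes, and Ifitm3 passed in DESeq2.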

How the data were processed

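The authors deposited raw counts by gene symbol beside mm9 gene coordinates, per the file headers, for 28 libraries of 100 sorted cells. The submitters' processing notes name TopHat, SAMtools, Subread, featureCounts 1.6.2 and the mm9 build. No source used here states the strand setting, how reads with several matches were treated, the annotation release or the sort gates. How the counting divided reads among near-identical copies (the Ifitm and H2 genes) is thus unknown. Exons of H2-D1 also overlap those of H2-L, and exons of Jak1 and Gbp2 overlap genes on the opposite strand. The members and gene lists were chosen with earlier results of these data known.

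The counts were modelled with edgeR 4.0.16 (R 4.3.3). The filterByExpr function, set to a minimum count of 10, chose the genes tested, and TMM factors scaled the libraries. One quasi-likelihood fit with a term for each population covered all 28 libraries (common biological coefficient of variation 0.563). P-values were adjusted by Benjamini-Hochberg over all 15238 genes, and a gene was called at an adjusted p under 0.05. Errors of log2 differences are standard errors. CPM levels and SDs use the same scaling. Log2 differences were named for called members, plus a few uncalled ones chosen after their values were seen, and for other pathway genes from the 4 of smallest p in each comparison. Marker lists are sums of CPM per library. One other pathway gene that the naming rule selects is not reported here.

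Totals were 16308918 to 31405603 counts. Floors cover counting error alone, because reads were amplified and are no count of molecules. In simulated data for E10.5 HE against EC, with 14858 genes, the fit recovered 19.2% of the 2-fold changes (14 of 73). It recovered 86.9% of the 4-fold and 100% of the 8-fold changes, and 3 of its 136 calls were false. These shares were not split by level of expression, so they do not show what is recovered among genes of few counts. Psmb8, a gene of few counts, was not called in pre-HSC II against pre-HSC I (edgeR adjusted p = 0.508). Its log2 difference there stayed between 2.42 and 3.53 with each library left out in turn. The alternatives tried were DESeq2 1.42.0, DESeq2 size factors in edgeR, no filter, a replicate block, fits of only the groups compared, each library left out in turn, and no hemoglobin-rich libraries. Replicate numbers share no stated origin.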

Additional observations from a re-analysis of the deposited data

Results flagged for a closer look

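In E8.5 HE, the only group of 4 libraries, 36 genes could be examined for a library far from the others, and 5 were found. Chance gives about 1 in 20 if the values are normally distributed. The gap of the extreme library as a share of the group's range was 0.9461 for Il10rb, whose replicate 4 was at 3.58 CPM beside 5.75 to 5.88 CPM, and 0.9349 for Irf7, whose replicate 2 was at 0.73 CPM beside 0 to 0.0475 CPM. It was 0.8558 for Tnfaip3 (replicate 1 at 0.621 CPM, the others at or under 0.0895 CPM), 1 for Psmb8 (replicate 4 at 0.0448 CPM, the others at 0) and 0.8518 for H2-D1 (replicate 2 at 9.91 CPM, the others at 6.31 to 6.85 CPM). The Irf7, Tnfaip3 and Psmb8 values are near the floor, so the rate of 1 in 20 does not apply to them.

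The difference between HE and EC changed at E9.5 against E8.5 for Tlr4 (-2.90 on the log2 scale, edgeR adjusted p = 0.00546) and B2m (-1.73, edgeR adjusted p = 0.0227), each being smaller at E9.5.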

How the results depend on the processing

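No called difference of the 38 genes reversed under any alternative run. Of 47 called differences, 16 were kept under every alternative and 17 in every run without 1 library. DESeq2 and DESeq2 size factors lost none, no filter lost 3 (Rela in pre-HSC I against HE, Ifngr1 in EC and Ifnar2 in HE at E9.5 against E8.5), and the replicate block lost 4. Fits of only the groups compared lost 14: Ifngr1, Ifitm1 and Gbp3 in HE against EC at E8.5, Sp110 at E9.5 and Il10rb, Stat3 and Ifitm2 at E10.5, Il6st and Rela in pre-HSC I against HE, Ifngr1, Ifi35 and H2-D1 in EC and Ifnar2 in HE at E9.5 against E8.5, and the change of B2m at E9.5. With DESeq2 the number called was 8 for E8.5 HE against EC, 3 for E9.5 HE against EC, 1 for pro-HSC/HPC against HE, 2 between pre-HSC II and pre-HSC I, 8 for EC and 12 for HE at E10.5 against E9.5, 9 for HE at E9.5 against E8.5, 2 for pre-HSC I against pro-HSC/HPC, and 1 each for the change of the HE and EC difference at E10.5 and for the step to blood. DESeq2 also added Ifngr1, Gbp3 and Sp110 in E10.5 HE against EC, Il10rb, Nfkb1 and Gbp3 in EC at E9.5 against E8.5, and Tap1 for the change at E9.5. Without the filter the number called was 2 for E9.5 HE against EC, 1 for pro-HSC/HPC against HE, 2 between pre-HSC II and pre-HSC I and 1 for the change at E10.5. With only the groups compared it was 2 for HE against EC at E8.5 and at E9.5, 2 for pro-HSC/HPC against HE, 2 between pre-HSC II and pre-HSC I, 7 for EC at E9.5 against E8.5, and 1 each for pre-HSC I against pro-HSC/HPC, the change at E9.5 and the step to blood. Without the hemoglobin-rich libraries it was 2 for pre-HSC I against HE and 0 between pre-HSC II and pre-HSC I. The cause of these shifts was not tested, except that fits of fewer groups hold fewer libraries.

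Same-numbered libraries correlated weakly, with 6 of 33 pairs above 0.1 (-0.0804 to 0.201). Within a day every such pair was positive, the lowest at 0.0174 in E9.5 HE against EC. Pairs between days were positive or negative. The main fit held no term for a weak effect shared by same-numbered libraries of a day. With the replicate block 1 gene, Ifitm1, was called in pro-HSC/HPC against HE and 6 at E8.5 between HE and EC, and 27 of the 38 varied over the populations. The 4 calls lost with the block were Ifngr1 in E8.5 HE against EC (adjusted p = 0.0826), Il10rb in pre-HSC II relative to pre-HSC I (0.0538), Irf1 in EC at E10.5 against E9.5 (0.0501) and Ifnar2 in HE at E9.5 against E8.5 (0.0871).

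Leaving out 1 library gave 3 to 6 calls for HE against EC at E8.5, 0 to 1 at E9.5 and 3 to 6 at E10.5. It gave 0 to 0 for pro-HSC/HPC against HE, 1 to 4 for pre-HSC I against HE, 0 to 1 between pre-HSC II and pre-HSC I and 0 to 0 for pre-HSC I against pro-HSC/HPC. The range was 6 to 10 for EC at E9.5 against E8.5, 1 to 5 for EC at E10.5 against E9.5, 4 to 5 for HE at E9.5 against E8.5 and 1 to 5 for HE at E10.5 against E9.5. It was 1 to 2 for the change at E9.5, 0 to 0 for that at E10.5, 0 to 1 for the step to blood and 25 to 29 for any difference. A call lost in such a run can keep nearly the same size, as with B2m in E10.5 HE against EC. Genes under about 1 CPM rest on few counts.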
